A study of Mus musculus with 60 samples.

Results

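The lower jaw of the mouse embryo at embryonic day E12.5 was compared along its length, the distal piece, nearer the chin, against the proximal piece, nearer the jaw joint. The 6 arrays were chosen by their titles, 3 of distal mandible and 3 of proximal mandible, out of 60 arrays in all. The whole collection holds mandible and maxilla (upper jaw) of C57Bl/6 embryos, each cut into a distal and a proximal piece at daily steps from E10.5 to E14.5. It was made for the FaceBase consortium to follow gene activity while both jaws form. Both groups used here are C57Bl/6 embryos of E12.5 with no other genotype or treatment in the labels, and both carry the same batch number in their titles. Total RNA was taken from each piece, and 3 µg per array was labelled for an Affymetrix mouse array. It is not stated in the labels if a group's 3 arrays came from separate embryos or from pools, nor where the cut between the pieces was made. The p-values below therefore measure only the spread between arrays, which may be technical.

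The mandible grows out of the first pharyngeal arch. Neural crest cells form its mesenchyme, the connective tissue, cartilage and bone, while its muscle comes from mesoderm and its covering and teeth from epithelium. Position along the arch is set by signals such as endothelin, Bmp, Fgf and hedgehog proteins and read out by transcription factors of the Hand, Dlx, Msx, Alx and Hox families. Around this age Meckel's cartilage, the jaw muscles, the trigeminal nerve branches and the first tooth buds are all present in the mandible.

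Signals are on the log2 scale, where 1 unit equals a doubling, and each difference is the distal mean minus the proximal mean. The deposited values hold no detection call. The floor was set at 4.78, the highest value that the 25th percentile took among the 60 arrays. A gene whose group mean does not exceed it was taken as not shown to be present there, and its fold is then given as at least the stated size. Arrays of the same piece correlated at 0.9978 to 0.9985 (distal) and 0.9959 to 0.998 (proximal) over all genes, and arrays of different pieces at 0.981 to 0.9836. Proximal replicate 2 stood somewhat apart, with a 25th percentile of 4.51 and a 75th percentile of 8.63, against 4.60 to 4.62 and 8.53 to 8.58 on the other 5 arrays. Without it 5226 genes were called in place of 5951. All 30 genes with the largest differences kept their direction and call without it, and the largest shift in such a difference was 0.17. The 3′ minus 5′ signal of the Gapdh control probes, a measure of RNA integrity, was between -0.12 and -0.04 distally and between -0.15 and -0.08 proximally. Xist, made from the inactive X chromosome, lay between 11.48 and 11.93, and the Y-linked Eif2s3y between 7.93 and 8.70, so that transcripts of both sexes were measured on each of the 6 arrays.

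Of 18193 genes, 5951 differed between the pieces at an adjusted p under 0.05 in limma, the threshold for every call below. They make up 32.7% of all genes, with 15.4% higher and 17.3% lower distally. The genes lower distally included far more large differences. Changes of at least 2-fold made up 3.75% of all genes, with 203 higher (1.12%) and 479 lower (2.63%), while at least 8-fold changes numbered 3 higher and 59 lower, and at least 16-fold changes 1 higher and 21 lower. The median difference over all genes was 0.01. A count within a gene list is read against these percentages. As the tissue is bulk, fewer cells of a type and less RNA per cell cannot be told apart for any result below.

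**Figure D1:**
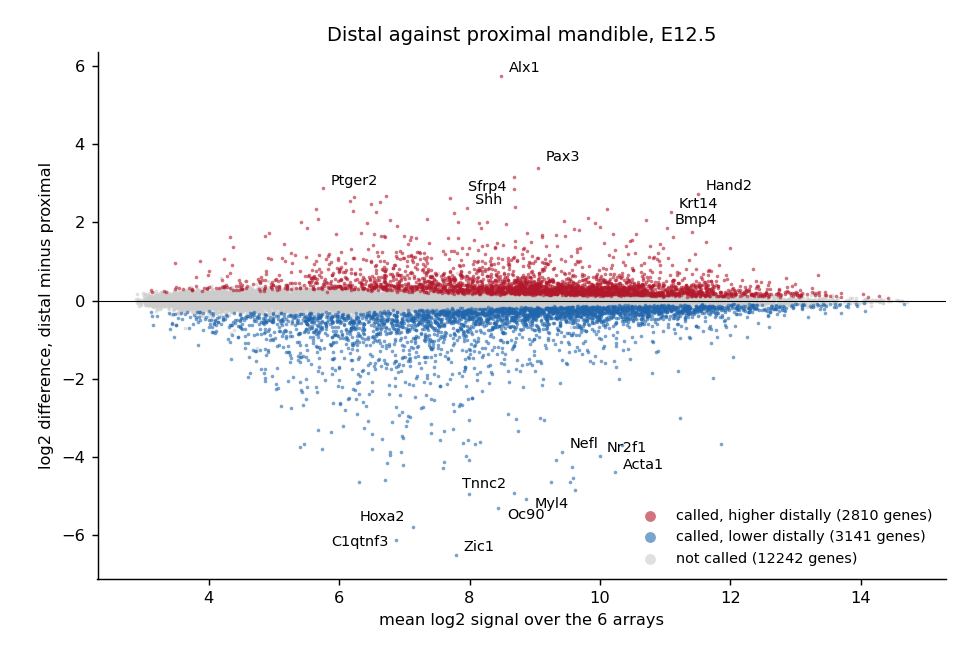
Each point is a gene, with its mean log2 signal over the 6 arrays on the horizontal axis and its log2 difference, distal minus proximal, on the vertical axis. Red points were called higher distally (2810), blue points lower distally (3141) and grey points not called, and the points under -4 outnumber the single one above 4, Alx1.

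The distal piece was marked most strongly by the homeobox gene Alx1, a transcription factor of facial mesenchyme. Its signal was 11.46, 11.34 and 11.28 on the distal arrays, against 5.59, 5.57 and 5.68 on the proximal arrays. The groups were far apart, with a difference of 5.74 (SE 0.26, limma adjusted p 1.94e-23), or 53.6-fold. Pax3, a paired box transcription factor of neural crest and muscle precursors, gave 10.74, 10.74 and 10.75 distally and 7.27, 7.43 and 7.38 proximally. It was 10.4-fold higher distally, with a difference of 3.38 (SE 0.15, adjusted p 4e-24). Hand2, the basic helix-loop-helix factor that marks the distal part of the arch, had 12.90, 12.86 and 12.85 distally and 10.19, 10.19 and 10.03 proximally. It was higher distally, with a difference of 2.73 (SE 0.12, limma adjusted p 1.65e-24).

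Secreted Wnt inhibitors were also among the genes highest distally. Sfrp4, a secreted Frizzled-related protein, measured 10.19, 10.24 and 10.34 in the distal pieces, against 7.14, 6.83 and 7.31 in the proximal pieces, and was 8.96-fold higher distally. Dkk4, a Dickkopf protein, measured 7.46, 7.54 and 7.62 distally and 4.95, 4.90 and 4.85 proximally, a 6.23-fold difference. Both were picked among genes whose distal and proximal arrays did not overlap. A receptor and a degrading enzyme of prostaglandin E2 were higher distally. Ptger2, a receptor for this lipid, was at least 5.32-fold higher, with 7.22, 7.24 and 7.11 distally and 4.56, 4.35 and 4.05 proximally, where its mean lay under the floor. Hpgd, the enzyme that breaks prostaglandins down, was 5.06-fold higher, with 11.32, 11.28 and 11.26 distally and 9.07, 9.12 and 8.64 proximally.

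Of the other genes with the largest distal excess, several are known from epithelia or teeth. Ambn (ameloblastin), a protein of the enamel matrix, had 7.54, 7.34 and 7.41 distally and 5.17, 4.59 and 4.92 proximally, 5.8-fold apart. Dsc3, a desmosomal cadherin of stratified epithelium, had 10.03, 9.99 and 9.67 distally and 7.53, 7.74 and 7.24 proximally, 5.26-fold apart, though its other probe set was not called. Shh, the Sonic hedgehog ligand made by oral and dental epithelium, had 9.15, 9.19 and 9.13 distally and 6.75, 6.88 and 6.70 proximally, 5.21-fold apart. These 3 genes, too, were picked among those with separate groups. Hey2, a repressor downstream of Notch, was 7.29-fold higher, Glis3, a zinc finger factor, 6.17-fold, Dlg2, a synaptic scaffold protein, 6.4-fold, and Insyn2b 5.7-fold. Afp (alpha-fetoprotein), known from yolk sac and fetal liver, was 5.55-fold higher, with 7.70, 7.51 and 7.95 distally and 5.31, 5.21 and 5.23 proximally.

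The proximal piece was marked by patterning genes, an inner ear gene and muscle. Zic1, a zinc finger transcription factor, measured 4.49, 4.39 and 4.78 distally, at or under the floor, against 10.91, 11.25 and 10.97 proximally. It was at least 76.7-fold lower distally, with a difference of -6.49 (SE 0.40, limma adjusted p 2.52e-18). C1qtnf3, a secreted protein of the C1q/TNF-related family, measured 3.71, 3.90 and 3.81 distally and 9.87, 10.20 and 9.73 proximally, at least 35.6-fold lower in the distal piece. Oc90 (otoconin-90), a matrix protein of the otoconia of the inner ear, measured 5.89, 5.85 and 5.62 distally and 11.14, 10.99 and 11.16 proximally, a difference of -5.31 (SE 0.24, adjusted p 1.28e-23). Tceal7 was at least 18.5-fold lower distally. Of the 15 genes with the largest deficit in the distal piece, 9 encode parts of the muscle's contractile machinery, and they are described with the muscle genes below. Among all 30 of these genes the largest adjusted p in limma was 4.67e-09.

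**Figure D2:**
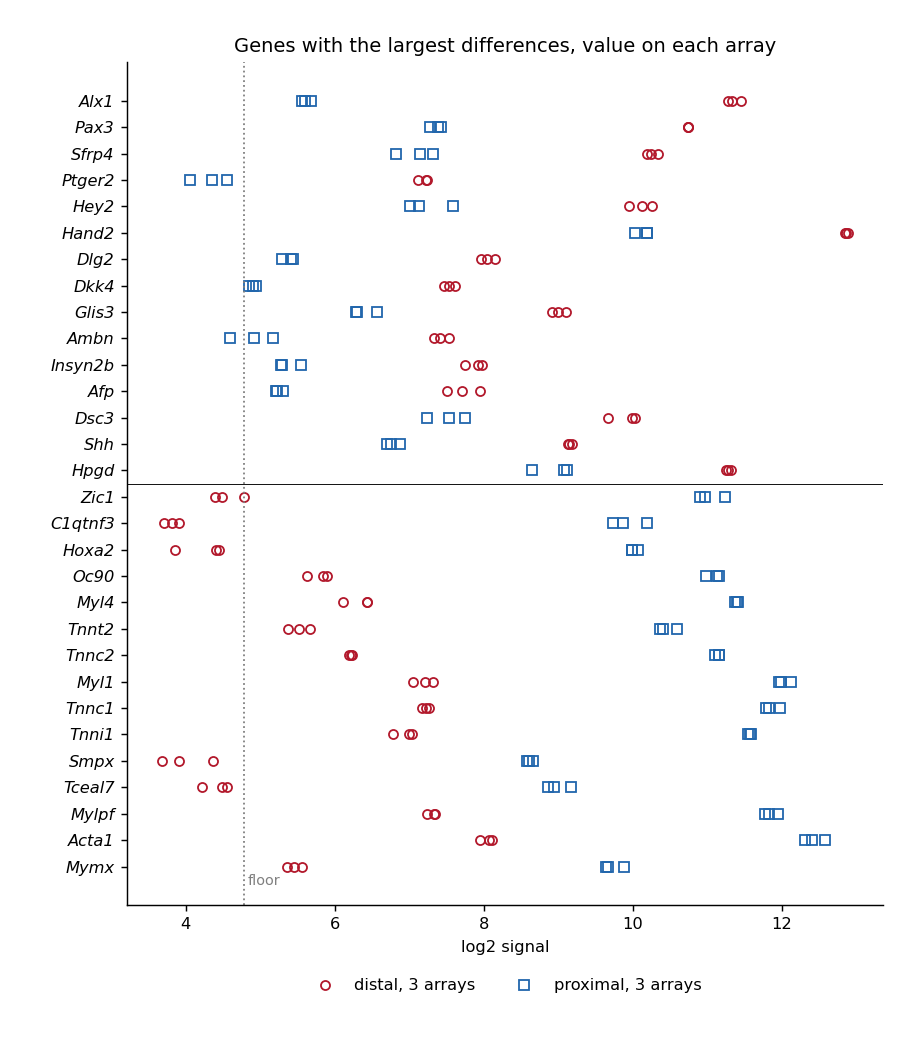
The log2 signal on each array is shown for the 15 genes with the largest excess (top) and the 15 with the largest deficit (bottom) in distal mandible, with red circles for the 3 distal and blue squares for the 3 proximal arrays. Separate distal and proximal arrays were a condition for choosing these 30 genes. The distal values of Zic1, C1qtnf3, Hoxa2, Smpx and Tceal7 average at or under the floor of 4.78 (dotted line). The proximal values of Ptger2 do so too.

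Transcription factors known from the distal arch were, with a single exception, higher in the distal piece. Of 8 measured, 7 rose and 1 fell, against 15.4% higher and 17.3% lower among all genes, and the median difference was 1.26, against 0.01 over all genes. Besides Alx1 and Hand2, Msx1, a homeobox gene downstream of Bmp signals, rose 3.08-fold, with 11.92, 11.93 and 11.93 distally and 10.24, 10.19 and 10.49 proximally. Its relative Msx2 rose 2.65-fold, with 10.004, 10.03 and 10.10 distally and 8.64, 8.62 and 8.66 proximally, and again the groups were separate. Pitx1, a homeobox gene of mandible and hindlimb, rose by 1.12 (SE 0.12). Alx4 rose by 0.56 and Hand1 by 0.36, though Hand1 lost its call without proximal replicate 2 (0.27, adjusted p 0.115). Isl1, a LIM homeobox gene of distal arch tissue and also a member of the neuronal list, fell by 0.58, with 8.83, 9.02 and 8.91 distally and 9.66, 9.39 and 9.47 proximally.

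Factors known from the proximal arch and its borders were mostly lower distally. Of 11 measured, 6 fell and 1 rose, with a median difference of -0.79. After Zic1, the nuclear receptor Nr2f1 (COUP-TFI) showed the next largest deficit, 7.98, 7.91 and 8.15 distally against 11.82, 12.22 and 11.89 proximally, 15.6-fold. Its relative Nr2f2 had 9.57, 9.74 and 9.83 distally and 11.06, 10.91 and 10.98 proximally, 2.41-fold lower in the distal piece. Sim2, a bHLH-PAS factor, was at least 6.84-fold lower, and Barx1, a homeobox gene of molar mesenchyme, was 2.91-fold lower. Six2 fell by 0.79, and the paired-related homeobox gene Prrx2 rose by 0.57. Gsc (goosecoid), Emx2, Pou3f3 and Tshz2 were not called, with differences of 0.32, 0.46, 0.02 and 0.17.

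The Dlx homeobox genes, whose nested expression divides the arch into upper and lower parts, were less uniform. Dlx1 was lower distally, with 8.29, 8.28 and 8.33 against 9.72, 9.80 and 9.55 proximally, and so was Dlx4, with 5.87, 5.73 and 5.84 against 7.53, 7.46 and 7.45 proximally. Groups did not overlap for either gene, and they were 2.62-fold and 3.18-fold lower. The other 4 members, Dlx2, Dlx3, Dlx5 and Dlx6, were not called, with differences of -0.13, -0.05, -0.32 and -0.27. In the endothelin pathway, which specifies lower jaw identity, the ligand Edn1 was not called (0.11, adjusted p 0.496). The enzyme Ece1, which activates the ligand, rose by 0.53 and the G protein Gna11 by 0.35, so that 2 of 7 measured members of the pathway rose and none fell.

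Hox genes, which specify the arches behind the first one and are normally off in first arch neural crest, were lower in the distal piece. Of 13 measured, 10 fell and 0 rose, with a median difference of -0.55. Hoxa2, the selector gene of the second arch, measured 4.45, 4.40 and 3.86 distally, under the floor, against 9.99, 10.07 and 9.99 proximally. It was at least 37.8-fold lower in the distal piece, with a difference of -5.78 (SE 0.28, adjusted p 3.47e-22). Hoxd1 measured 5.31, 5.24 and 5.23 distally and 8.39, 8.41 and 8.29 proximally, 8.61-fold lower, and Hoxb2 6.37, 6.63 and 6.59 distally and 9.39, 9.04 and 9.12 proximally, 6.29-fold lower. Hoxc4 (-1.71), Hoxd3 (-1.19), Hoxb5 (-0.97), Hoxb4 (-0.55), Hoxb3 (-0.54), Hoxc5 (-0.47) and Hoxa5 (-0.37) fell less, and Hoxa5 lost its call without proximal replicate 2 (-0.32, adjusted p 0.103). Hoxa4 and Hoxb1 lay under the floor in both pieces, and Hoxa3 was not called (-0.27).

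Oc90 belongs to a list of 12 measured inner ear epithelium markers, of which 7 were lower, 1 higher and 4 not called distally, with a median of -0.46. The log2 of their summed signal was 10.08 to 10.26 in distal and 11.76 to 11.80 in proximal pieces, a gap carried by Oc90. Without Oc90 the sum was 10.02 to 10.19 in distal and 10.30 to 10.499 in proximal pieces, and 6 of 11 markers were lower. Tecta (alpha-tectorin), of the tectorial membrane, had 5.45, 5.03 and 5.35 distally and 5.92, 6.07 and 6.03 proximally, and Otog (otogelin) fell by 0.61. Without proximal replicate 2 the gene that rose, Ush1c, lost its call (0.29, adjusted p 0.0886), as did Lmx1a among those that fell (-0.50, adjusted p 0.0851), leaving 6 of 12 lower. Hmx2, an otic homeobox gene, had 4.08, 3.90 and 4.08 distally and 4.64, 5.38 and 5.25 proximally. The defining markers Pax8, Tectb and Hmx3, the last called lower, lay under the floor in both pieces. Whether tissue near the ear in the proximal piece plays a part in the Hox, Zic1 or Oc90 differences was not tested.

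Retinoic acid, a vitamin A derivative that controls Hox genes in the hindbrain and arches, is made by Aldh1a enzymes and removed by Cyp26 enzymes. Of 13 measured pathway members, 2 were higher and 5 lower distally. Aldh1a3 was 3.77-fold lower, with 6.42, 6.69 and 6.57 distally and 8.49, 8.65 and 8.29 proximally. Of the degrading enzymes, Cyp26a1 was 3.26-fold lower, with 6.42, 6.49 and 6.89 distally and 8.27, 8.31 and 8.35 proximally, while Cyp26b1 was 2.37-fold higher, with 10.27, 10.21 and 10.34 distally and 9.01, 9.04 and 9.04 proximally. The degrading enzymes thus lay on opposite sides, each with separate groups. The receptor Rarg rose by 0.41, the binding proteins Crabp1 and Crabp2 were lower by small amounts (-0.34 and -0.13), and the reductase Dhrs3 fell by 0.35. Crabp2 lost its call without proximal replicate 2 (-0.12, adjusted p 0.0896), which leaves 4 lower. Aldh1a2 was not called (-0.18, adjusted p 0.662).

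Bmp signals, growth factors with roles in distal arch identity, teeth and bone, were higher distally at several levels of the pathway. Of 5 measured ligands, 4 rose and 1 fell. Bmp4 had 11.92, 11.98 and 11.98 distally and 10.09, 10.07 and 10.12 proximally, 3.65-fold higher in the distal piece with a difference of 1.87 (SE 0.17, limma adjusted p 1.63e-12). Bmp6 had 8.65, 8.62 and 8.63 distally and 6.998, 7.18 and 6.88 proximally, 3.06-fold higher. Bmp2 rose by 0.62 and Bmp7 by 0.49, whereas Bmp5 fell by 0.52. Among the 6 receptors measured, Bmpr1b, a type I receptor prominent in cartilage precursors, fell 4.09-fold, with 7.13, 6.98 and 7.20 distally and 9.12, 9.22 and 9.07 proximally. Bmpr2 (0.40) and Acvr2b (0.50) rose, as did Bmpr1a by 0.13, although another probe set of Bmpr1a was called in the opposite direction.

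Of 8 measured genes that respond to Bmp signals, 4 rose and none fell. The inhibitory Smad6 rose by 1.02 and Smad7 by 0.87, and the helix-loop-helix gene Id4 by 0.90. Smad9 rose by 0.33 but lost its call without proximal replicate 2 (0.24, adjusted p 0.242). Id1, Id2 and Id3, the usual readouts, were not called, with differences of 0.05, 0.18 and 0.07, and their arrays overlapped. The 9 measured antagonists were divided. Bambi, a decoy receptor, rose 3.27-fold, with 11.04, 11.09 and 11.05 distally and 9.40, 9.40 and 9.24 proximally, and Sostdc1 rose by 1.40 and Twsg1 by 0.33. Bmper fell by 1.61, with 8.75, 8.72 and 8.60 distally and 10.34, 10.32 and 10.26 proximally, Chrdl1 by 1.36 and Grem1 (gremlin) by 0.95, and Nog, Chrd and Fst were not called.

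Shh and several genes that hedgehog signals induce were higher distally. Beside Shh (2.38), the receptor Ptch1, which the pathway itself induces, had 11.65, 11.60 and 11.69 distally and 10.14, 10.40 and 10.05 proximally, 2.73-fold higher with a difference of 1.45 (SE 0.078, adjusted p 1.50e-20). Gli1, a transcription factor that is likewise induced, had 8.52, 8.64 and 8.56 distally and 7.55, 7.64 and 7.53 proximally, 2-fold higher. The ligand-binding Hhip rose by 1.24. Among 10 measured ligands, receptors and coreceptors 4 rose and 1 (Disp1, -0.27) fell, and the coreceptors Boc, Cdon and Gas1 were not called. Without proximal replicate 2 the ligand Dhh was also called lower, which makes 2.

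Of 8 hedgehog transcription factors and targets, 5 rose and 2 fell, with a median of 0.73. The forkhead gene Foxf1 had 9.09, 9.05 and 9.20 distally and 7.32, 7.32 and 7.12 proximally, 3.63-fold higher. Foxf2 was 3.09-fold higher, with 7.55, 7.58 and 7.42 distally and 5.93, 6.00 and 5.75 proximally, and Gli2 and Gli3 rose by 0.50 and 0.97. Foxc2 fell by 1.06 and Foxd1 by 0.71, so that forkhead genes of the list lay on both sides.

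Fgf ligands were mostly not called. Fgf7, a mesenchymal factor that acts on epithelium, was the exception in size, with 6.39, 6.57 and 6.41 distally and 8.68, 8.80 and 8.43 proximally, 4.52-fold lower in the distal piece. Fgf18 rose by 0.58, Fgf9 fell by 0.30 and Fgf1, under the floor distally, also fell, so that 1 rose and 3 fell of 10 measured. Fgf8, which patterns the proximal oral epithelium at earlier ages, had 5.05, 5.03 and 5.16 distally and 4.90, 4.92 and 4.76 proximally and was not called. Fgf9 lost its call without proximal replicate 2 (-0.25, adjusted p 0.0924).

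Of 5 Fgf receptors 3 were higher and 1 lower distally. Fgfr2 had 11.08, 11.10 and 11.07 distally and 10.25, 10.16 and 10.13 proximally, and Fgfr3 and Fgfr1 also rose, by 0.85 and 0.79. Fgfr4, a receptor known from developing muscle, fell 3.44-fold, with 5.37, 5.56 and 5.48 distally and 7.23, 7.30 and 7.22 proximally. Of 9 measured targets and feedback genes, 3 rose and 4 fell. Il17rd (Sef) fell by 0.96 and Spry2 (sprouty) by 0.81, and Dusp6 fell by 0.21, while Spred1, Spred2 and Etv5 rose by 0.35, 0.35 and 0.30. Spry4 fell by 0.46, but 1 other probe set of the gene was called in the opposite direction, and the call was lost without proximal replicate 2 (-0.31, adjusted p 0.147).

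Genes induced by canonical Wnt signalling were higher distally, together with most secreted Wnt inhibitors that changed. Of 9 measured targets 8 rose and none fell, with a median of 0.64. Lef1, a transcription factor of the pathway also used in teeth and hair, had 11.68, 11.66 and 11.58 distally and 10.31, 10.36 and 10.18 proximally, 2.56-fold higher. Rnf43 and Znrf3, ligases that remove Frizzled receptors, rose by 0.998 and 0.87, Nkd1 by 0.94, and Axin2, the most used readout, by 0.47 (SE 0.078, adjusted p 3.03e-06). Sp5 was not called (-0.25).

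Of 10 measured inhibitors 5 rose and 2 fell. The log2 of their summed signal was 13.67 to 13.68 in distal and 13.67 to 13.74 in proximal pieces, so the total was not higher distally. Dkk1 had 10.77, 10.89 and 10.93 distally and 8.82, 8.74 and 8.73 proximally, 4.29-fold higher. Wif1 rose 3.12-fold, with 10.36, 10.33 and 10.16 distally and 8.58, 8.90 and 8.45 proximally, and Frzb rose by 1.05. On the other side, Sfrp2 had 11.37, 11.34 and 11.26 distally and 12.81, 12.69 and 12.75 proximally, 2.69-fold lower, and Sfrp1 fell by 1.08. The secreted Frizzled-related family was therefore divided, with Sfrp4 higher, Sfrp1 and Sfrp2 lower, and Sfrp5 not called (0.04).

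Most dental mesenchyme genes were higher distally, where the incisors form, and Barx1, a molar gene, was lower. In dental mesenchyme, a list that shares Msx1, Bmp4 and Barx1 with others above, 6 of 9 measured genes rose and 3 fell, with a median of 0.96. Lhx8, a LIM homeobox gene of oral mesenchyme, had 11.40, 11.39 and 11.41 distally and 9.65, 9.81 and 9.64 proximally, 3.25-fold higher. Lhx6 rose by 1.005, the activin subunit Inhba by 0.96 and Pax9, needed for tooth bud formation, by 0.82. Barx1 had 9.10, 9.02 and 9.11 distally and 10.53, 10.58 and 10.73 proximally, and Tgfbi fell by 0.95. In dental epithelium 5 of 10 measured genes rose and 1 fell, with a median of 0.29. Wnt10b lost its call without proximal replicate 2 (0.27, adjusted p 0.0976), which leaves 4 that rose. Shh and Sostdc1 (1.40) led, Sp6 rose by 0.59, and Irx1 fell by 0.87.

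Markers of the surface epithelium were higher in the distal piece as well. Of 15 measured 12 rose and none fell, with a median of 1.16, and 11 rose without proximal replicate 2. The log2 of their summed signal was 14.67 on each distal array and 13.47 to 13.54 on the proximal arrays. Krt14, a basal keratin, had 12.24, 12.20 and 12.23 distally and 9.97, 9.92 and 9.96 proximally, 4.84-fold higher. Dsp (desmoplakin) had 12.28, 12.29 and 12.31 distally and 10.49, 10.69 and 10.43 proximally, 3.38-fold higher, and Trp63, the p63 regulator of stratified epithelium, rose by 1.46. Epcam, a general epithelial marker, rose by only 0.35, and the simple-epithelium keratins Krt8 and Krt18 were not called (0.08 and 0.09). What part the share of epithelium has in the Shh, Dkk4, Ambn, Dsc3 or Wnt target differences was not tested.

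Skeletal muscle had the largest median difference of the 38 gene lists examined. Each of the 22 contractile and membrane genes of skeletal muscle measured was lower in the distal piece, with a median difference of -4.14, against 17.3% of all genes called lower and an all-gene median of 0.01. All 22 were also called without proximal replicate 2, with a median of -4.02. The log2 of their summed signal was 11.67 to 11.73 in distal and 15.64 to 15.70 in proximal pieces. Myl4, the embryonic and atrial myosin light chain, had 6.43, 6.11 and 6.43 distally and 11.37, 11.41 and 11.41 proximally, 33.7-fold lower with a difference of -5.07 (SE 0.38, limma adjusted p 1.68e-15). The other probe set of Myl4 was not called. Tnnc2, fast troponin C, had 6.23, 6.19 and 6.22 distally and 11.16, 11.11 and 11.16 proximally, 30.4-fold lower. Acta1, skeletal alpha-actin, had 8.11, 7.95 and 8.07 distally and 12.31, 12.40 and 12.58 proximally, 20.9-fold lower. Groups lay far apart for each of them.

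Other thin and thick filament genes followed. Tnnt2 (-4.93), Myl1 (-4.83), Tnnc1 (-4.64), Tnni1 (-4.63), Mylpf (-4.54) and the embryonic myosin heavy chain Myh3 (-4.26) were all lower by more than 4. The giant proteins Ttn (titin) and Neb (nebulin) were 17.4-fold and at least 7.22-fold lower, and Smpx at least 14.3-fold. The smallest deficits were those of Des, desmin (-1.46), and of the membrane genes Chrng (-1.73) and Cdh15 (-1.98). Of 8 heart muscle markers none was called in either direction, with a median of 0.07, and Myl2, Myh6 and Nppa lay under the floor in both pieces.

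Regulators of head muscle were lower along with the contractile genes. Of 14 measured 9 fell and 1 rose, with a median of -1.76. Myog (myogenin), which starts terminal differentiation, had 7.22, 7.29 and 7.37 distally and 11.35, 11.39 and 11.37 proximally, 16.9-fold lower with a difference of -4.08 (SE 0.16, adjusted p 9.49e-26). Myf5, which commits cells to muscle, had 4.66, 4.90 and 5.08 distally and 8.34, 8.74 and 8.19 proximally, 11.7-fold lower, and Myod1 was 6.49-fold lower. Msc (musculin), a regulator of jaw muscle precursors, had 6.37, 6.24 and 6.43 distally and 9.93, 9.94 and 10.04 proximally, 12.3-fold lower. The fusion proteins Mymx (myomixer) and Mymk (myomaker) were 19.4-fold and 4.2-fold lower, and Pax7, of muscle stem cells, at least 6.56-fold lower. Pax3 is the member that rose, in the direction opposite to its relative Pax7. Tbx1, Eya1, Six4 and Lbx1 were not called.

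Since these muscle genes moved together, the 300 bases around their starts (250 before and 50 after) were searched on both strands for the E-box CAGCTG, a word bound by myogenic factors. The windows come from RefSeq (GRCm38.p6), and 19 of the 22 contractile genes matched one by gene ID. Of these, 8 held the word, and 2309 of 14368 measured genes with a window held it, or 16.1%. A Mef2-type word (CTA, any 4 bases, TAG) was in 3 of the 19 windows, and in 3.35% of all windows. Of 6 head muscle regulators with a window, 0 held CAGCTG and 1 held the Mef2-type word. The windows of Mylpf, Acta1, Myl1 and Chrna1, 4 of the 8 with the word, are printed 5′ to 3′ on the gene's strand, with the word in capitals to show its place. Chrna1, the acetylcholine receptor subunit, fell by 2.52 on the log2 scale.
Mylpf, chr7:127211358-127211657, plus strand: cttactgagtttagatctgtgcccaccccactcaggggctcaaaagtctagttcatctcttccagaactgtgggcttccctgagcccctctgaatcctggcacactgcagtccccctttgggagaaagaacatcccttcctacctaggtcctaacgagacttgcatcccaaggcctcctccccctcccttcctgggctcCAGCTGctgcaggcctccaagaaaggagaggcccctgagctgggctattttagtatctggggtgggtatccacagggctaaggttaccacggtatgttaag
Acta1, chr8:123894726-123895025, minus strand: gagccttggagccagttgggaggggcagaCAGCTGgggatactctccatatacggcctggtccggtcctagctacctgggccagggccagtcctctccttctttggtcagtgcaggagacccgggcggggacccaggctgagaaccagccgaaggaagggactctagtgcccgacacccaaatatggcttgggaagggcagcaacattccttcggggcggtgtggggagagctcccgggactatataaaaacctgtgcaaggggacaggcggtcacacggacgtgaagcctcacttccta
Myl1, chr1:66945007-66945306, minus strand: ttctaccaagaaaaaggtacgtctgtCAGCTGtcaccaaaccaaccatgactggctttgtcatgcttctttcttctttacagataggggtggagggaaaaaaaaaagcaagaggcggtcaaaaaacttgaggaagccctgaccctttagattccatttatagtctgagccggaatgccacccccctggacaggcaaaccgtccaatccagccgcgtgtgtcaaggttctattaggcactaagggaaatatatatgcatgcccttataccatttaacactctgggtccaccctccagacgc
Chrna1, chr2:73580289-73580588, minus strand: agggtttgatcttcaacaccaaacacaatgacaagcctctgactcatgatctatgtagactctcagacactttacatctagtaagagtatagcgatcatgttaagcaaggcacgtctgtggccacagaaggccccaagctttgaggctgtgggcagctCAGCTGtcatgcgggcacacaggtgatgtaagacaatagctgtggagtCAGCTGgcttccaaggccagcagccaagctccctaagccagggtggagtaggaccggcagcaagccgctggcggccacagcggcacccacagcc
The word starts 51 bases before the gene's start in Mylpf, 221 before it in Acta1, 224 before it in Myl1, and 92 and 44 before it in Chrna1. A match describes these letters and is not a bound site. The Gli word GACCACCCA was in 0 of 8 windows of hedgehog ligands and receptors, 0 of 5 of hedgehog transcription factors and targets, and in 0.195% of all windows, and the Alx palindrome (TAAT, any 3 bases, ATTA) in 0 of 4 windows of distal arch factors and in 0.23% of all windows.

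Most genes of cartilage and bone were not called. Of 20 cartilage genes 6 fell, 1 rose and 13 were not called, with a median of -0.30. Epyc (epiphycan), a small proteoglycan, had 4.89, 4.85 and 4.68 distally and 8.64, 8.93 and 8.70 proximally, 15.4-fold lower. Matn1 (matrilin-1) had 6.96, 7.11 and 7.13 distally and 8.93, 8.89 and 8.60 proximally, 3.35-fold lower. Cnmd (chondromodulin) fell by 1.03 and Col9a3 by 0.87. Col2a1 (-0.59) and Col9a1 (-0.41), collagen genes of cartilage, fell, but lost their calls without proximal replicate 2 (limma adjusted p 0.0744 and 0.0553). That leaves 4 of 20 that fell, where 17.3% of all genes were called lower with every array. Sox9, the master regulator of cartilage, was not called (-0.26), nor was Acan, aggrecan (-0.00), and Sox6 rose by 0.60.

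The labels name the tissue of these pieces as bone, and the early bone genes were present. Of 10 bone genes 3 rose, 1 fell and 6 were not called, with a median of 0.12. Sp7 (osterix), the factor of committed bone-forming cells, had 9.21, 9.18 and 9.30 distally and 7.85, 7.72 and 7.81 proximally, 2.69-fold higher in the distal piece. Alpl, alkaline phosphatase, had 8.79, 8.85 and 8.86 distally and 6.85, 6.64 and 6.96 proximally, 4.04-fold higher, and Ibsp, bone sialoprotein, rose by 1.18. Phex, a peptidase of later bone cells, was under the floor distally and at least 5.39-fold lower there, with 7.05, 7.47 and 7.11 proximally. The osteocyte marker Dmp1 and the collagenase Mmp13 lay under the floor in both pieces, and Col1a1 was not called (0.05). Of 9 joint and tendon genes 2 rose and 4 fell, of which Prg4, lubricin of joint fluid, lost its rise without proximal replicate 2 (0.36, adjusted p 0.152) and Erg its fall (-0.33, adjusted p 0.0512), leaving 1 and 3. Gdf5, a joint growth factor, was 2.73-fold lower, Scx (scleraxis), the tendon regulator, 2.69-fold lower and Thbs4, a tendon and muscle matrix protein, 3.48-fold lower, with 7.56, 7.72 and 7.81 distally and 9.55, 9.47 and 9.46 proximally.

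Nerve genes were lower in the distal piece. Of 17 neuronal genes 14 fell and none rose, with a median of -1.39, and 13 fell without proximal replicate 2. Nefl, neurofilament light chain, had 7.501, 7.44 and 7.51 distally and 11.38, 11.41 and 11.27 proximally, 14.6-fold lower. Prph (peripherin), of peripheral neurons, had 4.62, 4.83 and 4.99 distally and 7.78, 7.75 and 7.63 proximally, 7.5-fold lower. Stmn2, Tubb3 and Dcx were not called (0.69, -0.54 and -0.64). Of 7 Schwann cell and glial genes 6 fell, among them Fabp7 (-2.15), Cdh19 (-1.21) and Sox10 (-0.68). Foxd3 lost its call without proximal replicate 2 (-0.34, adjusted p 0.121), leaving 5. The log2 of the summed neuronal signal was 12.16 to 12.22 in distal and 13.30 to 13.44 in proximal pieces, and Scn9a, a sodium channel of sensory neurons, and Neurod1 had distal means under the floor.

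Pigment cell and macrophage genes were lower distally too. Dct, a melanin enzyme, had 5.54, 5.65 and 5.23 distally and 8.38, 8.40 and 8.37 proximally, 7.52-fold lower, and Pmel, Tyr and Mitf also fell, 4 of the 6 pigment genes. Of 13 macrophage genes 12 fell and none rose, with a median of -0.85. Lyz2, lysozyme, had 7.74, 7.87 and 7.89 distally and 9.13, 9.26 and 9.05 proximally, 2.49-fold lower, and C1qb and Csf1r fell by 1.21 and 0.85. Pf4 was the single macrophage gene not called (0.00). The log2 of the summed macrophage signal was 11.71 to 11.73 in distal and 12.48 to 12.51 in proximal pieces.

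Few vessel genes and no blood genes were called. Of 12 endothelial genes 2 rose (Sox18 by 0.86 and Flt1 by 0.36) and 2 fell (Egfl7 and Emcn), with a median of 0.12, and none of the 8 red blood cell genes was called. Of 8 pericyte and smooth muscle genes 4 fell, led by Acta2, smooth muscle actin, which early skeletal muscle also makes, with 9.75, 9.79 and 9.64 distally and 12.77, 12.65 and 12.74 proximally. Tagln lost its call without proximal replicate 2 (-0.42, adjusted p 0.0701), leaving 3. Myh11, a myosin particular to smooth muscle, was not called (-0.08). Of 8 pharyngeal endoderm and thyroid markers, Pax1 rose (0.78) and none fell, and without proximal replicate 2 Foxn1 was called higher as well.

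Cell division genes showed small shifts. Of 19 measured 11 rose and 3 fell, with a median of 0.17, and 9 rose without proximal replicate 2. Mki67, the Ki-67 proliferation marker, rose by 0.52 and Cenpe, a kinetochore motor, by 0.56. The genes that fell were the cell cycle inhibitors Cdkn1a (p21, -0.98) and Cdkn1c (p57, -0.32) and the cyclin Ccnd1 (-0.73). Of 11 immediate early and stress genes 2 rose and 3 fell, among them Egr1, with 8.33, 8.35 and 8.43 distally and 9.60, 9.44 and 9.41 proximally. Fos was not called (0.18).

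**Figure D3:**
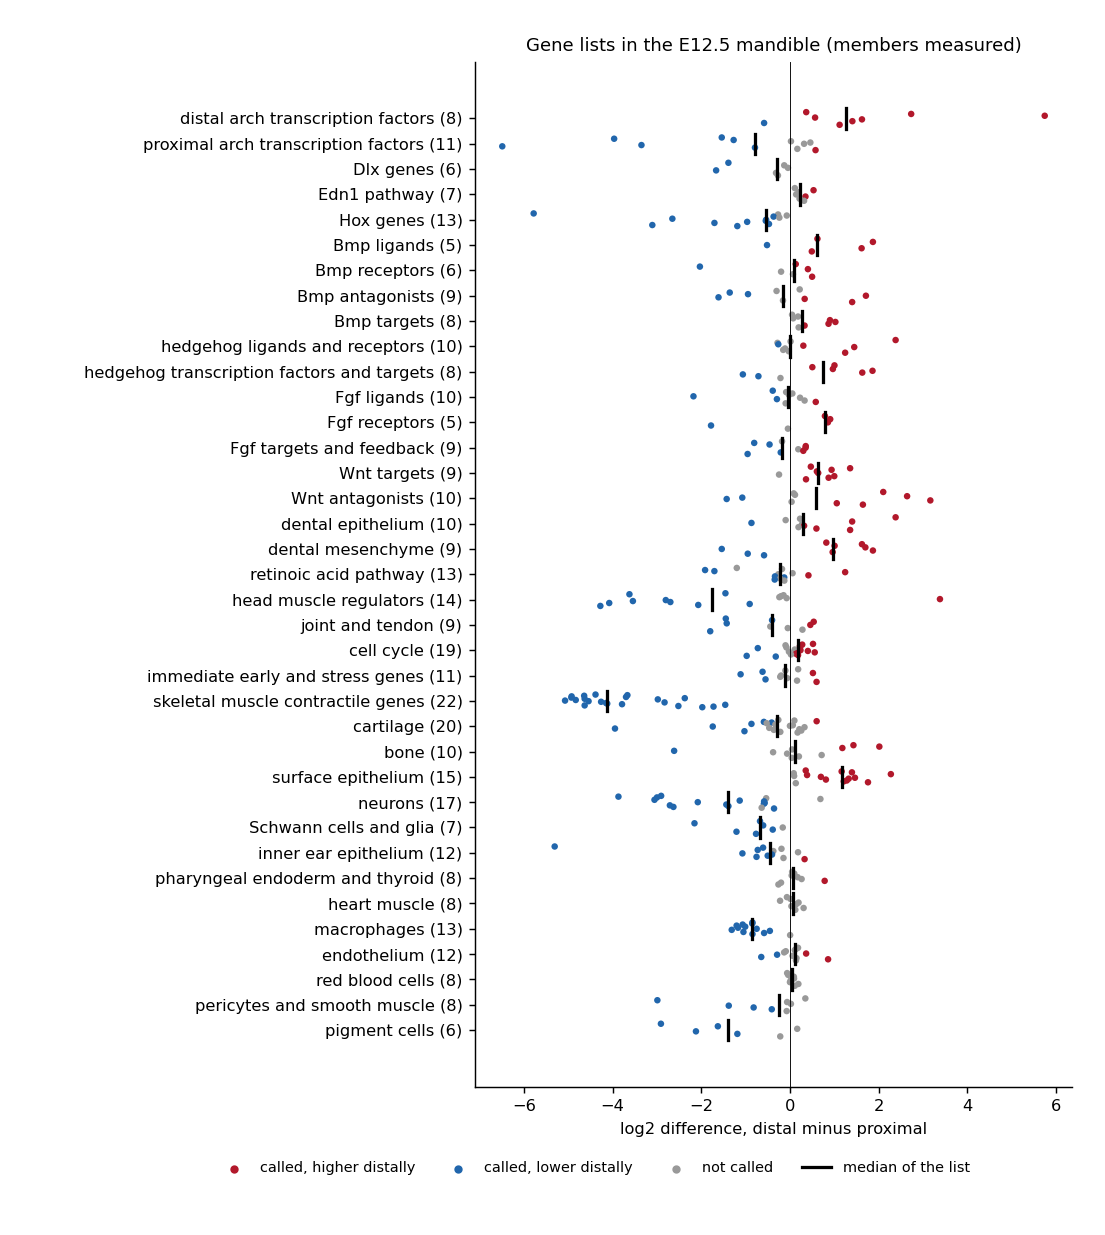
Each point is a measured list member at its log2 difference, distal minus proximal, in E12.5 mandible, red where called higher, blue where called lower and grey where not called, and the black bar is the list's median. The muscle contractile genes lie wholly to the left with a median of -4.14, the surface epithelium genes to the right with a median of 1.16, and red blood cell and heart muscle genes around 0.

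To see which of these differences the upper jaw shares, the mandible's distal minus proximal difference was tested against that of the maxilla of the same age and batch. At E12.5 muscle genes, most Hox genes and Oc90 had the larger distal deficit in the mandible, and neuronal genes fell far more in the distal maxilla. Of 15 surface epithelium genes 12 rose in the distal mandible and 15 in the distal maxilla. The test of the difference of differences called 6069 genes (33.4%), 14.0% toward a higher value in the mandible and 19.4% toward a lower one. Differences of at least 2-fold made up 6.63% of genes, 3.88% upward and 2.75% downward, and the median over all genes was -0.04. Within the maxilla itself 39.0% of genes were called, 23.3% higher and 15.7% lower distally. The test between the jaws called 5 of the 15 epithelium genes upward and 6 downward. Dsc3, which is not on that list, rose by 2.40 in the mandible and differed by -0.79 in the maxilla (limma adjusted p 0.0043). Ambn, also not on it, was not called within the maxilla (0.20). Leaving out both proximal arrays with a wider distribution, mandible replicate 2 and maxilla replicate 3, gave 5451 genes.

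All 22 muscle contractile genes differed between the jaws, with a median difference of differences of -4.51. None was called within the maxilla at E12.5, where the median was 0.29. Myl4 averaged 6.32 ± 0.18 and 11.40 ± 0.02 in distal and proximal mandible, against 10.32 ± 0.10 and 9.98 ± 0.10 in distal and proximal maxilla (SD, n = 3 each). The difference of differences was -5.41 (SE 0.54, limma adjusted p 1.10e-11), and the distal mandible had the lowest mean of the 4 pieces. Tnnt2 (-5.30) and Tnnc2 (-5.29) gave the next lowest values. Of the head muscle regulators, 11 of 14 were called downward and Pax3 upward (1.67). Within the maxilla Pax3 differed by 1.71. A day earlier, at E11.5, the maxilla also held distal deficits, with Myl4 at -3.09, Actc1 at -3.07, Myog at -2.80 and Myf5 at -3.27. Others, such as Des (-0.32) and Chrna1 (-0.41), were not called there, and Pax7 was higher distally (0.68).

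Oc90 averaged 5.79 ± 0.14 and 11.10 ± 0.09 in distal and proximal mandible, against 5.87 ± 0.14 and 6.00 ± 0.01 in distal and proximal maxilla. The proximal mandible was thus the single high piece at E12.5, with a difference of differences of -5.18 (SE 0.34, adjusted p 9.46e-18). Within the maxilla Oc90 differed by -0.125 at E12.5, but by -4.52 at E13.5 and -3.82 at E14.5, so the later maxilla held a distal deficit too. At E12.5 Hoxa2 gave a difference of differences of -5.005, with 2 of the 4 groups under the floor, and C1qtnf3 -5.01, with 3 under the floor. The sizes for Hoxa2 and C1qtnf3 are therefore uncertain. Of 13 Hox genes 8 were called downward and none upward. Zic1 differed in the maxilla as well, by -3.58, and its difference of differences was -2.91 (SE 0.57).

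Distal arch transcription factors were called upward in 5 of 8 cases and downward in none. Hand2 differed by 2.73 in the mandible, against -0.58 in the maxilla, which leaves 3.31 (SE 0.16, adjusted p 5.51e-22). Alx1 was higher distally in both jaws, by 5.74 in the mandible against 2.22 in the maxilla, and was called upward. Msx2 went opposite ways, with 1.41 in the mandible and -2.67 in the maxilla, whereas Msx1 had 1.62 in the mandible and 1.92 in the maxilla and was not called. Barx1 was lower distally in the mandible (-1.54) and higher in the maxilla (1.802), and proximal arch factors were called downward in 9 of 11 cases and upward in none. The Wnt inhibitor Sfrp4 was called upward (3.77), and Dkk1, higher distally by 2.10 in mandible and 1.39 in maxilla, was not called. Several lists were higher distally within the maxilla as well. Of 9 dental mesenchyme genes 7 rose and 1 fell there (median 1.18), and of 9 Wnt targets 6 rose and 0 fell (0.62). Of 8 hedgehog transcription factors and targets 5 rose and 3 fell (0.76), and of 19 cell cycle genes 18 rose and 0 fell (0.49).

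Neuronal genes were called upward in 16 of 17 cases, and the deficit was larger in the maxilla. Their median came to -1.39 for the mandible and -4.87 for the maxilla. Pou4f1, a factor of sensory ganglia, averaged 4.83 ± 0.15 and 5.97 ± 0.11 in distal and proximal mandible, against 4.83 ± 0.13 and 11.16 ± 0.04 in distal and proximal maxilla. Prrxl1 (5.81), Isl1 (5.46), Ppp1r17 (5.40), Ppp1r1c (5.12) and Neurod4 (4.90) gave the other highest values, with the high level in the proximal maxilla each time. Of them Ppp1r17 had 2 and Neurod4 3 groups under the floor. Nefl was not called (-0.25, adjusted p 0.705).

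**Figure D4:**
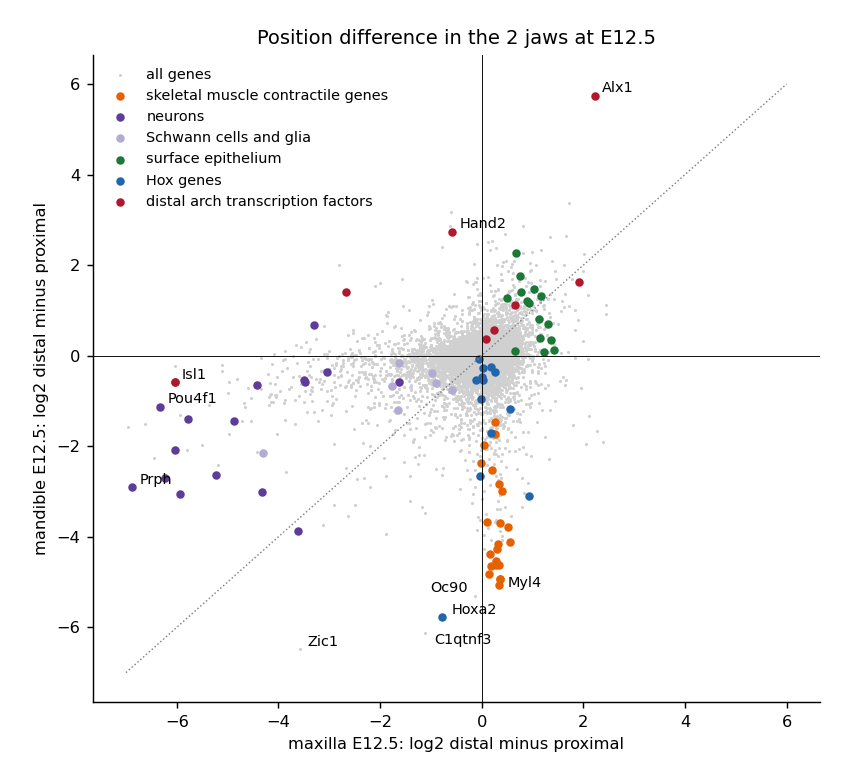
Each gene's log2 difference, distal minus proximal, at E12.5 is shown for the mandible (vertical) and the maxilla (horizontal), with all genes in grey, members of 6 lists in colour and equal differences on the dotted line. Muscle genes (orange) lie far below 0 for the mandible and near 0 for the maxilla, neuronal genes (purple) lie far to the left, and surface epithelium genes (green) lie above 0 in both jaws.

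To see what sets E12.5 apart in the mandible, its distal minus proximal difference was tested against the mean of that at the other 4 ages. The deficit of muscle genes, Zic1 and C1qtnf3 was larger at E12.5 than on average at the other ages. Most Wnt target, surface epithelium and dental mesenchyme genes were called upward in that test, though the medians of these lists at E12.5 lay close to those at E13.5. In all 4454 genes (24.5%) were called, 11.2% upward and 13.3% downward, around a median of -0.00, and at least 2-fold 1.7%, with 0.368% upward and 1.33% downward. Both pieces of an age share a batch, but the ages lie in 3 batches and E12.5 is alone in its own, so that age and batch cannot be told apart. An added batch shift cancels in these differences, whereas a batch difference in the scale of signals would not. Without both E11.5 mandible arrays with signals shifted upward (replicate 3 of the distal and 1 of the proximal pieces) 4978 genes were called.

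All 22 muscle contractile genes were called downward, with a median of -2.56. Their median differences from E10.5 to E14.5 were -0.36, -0.75, -4.14, -2.02 and -1.20, so that the median deficit was largest at E12.5. Myog ran 0.35, -0.60, -4.08, -1.59 and -0.88 from E10.5 to E14.5. Myf5 ran 0.64, 0.86, -3.54, -0.92 and -0.61, above 0 at the first 2 ages. Against the mean of the other ages, Tnnc2 (-3.70), Myl1 (-3.59), Myf5 (-3.54) and Mylpf (-3.49) had the lowest values together with Zic1 (-4.12) and C1qtnf3 (-3.86). Some members of the list already had large deficits at E10.5, among them Myl4 (-4.61), Actc1 (-3.54), Myh7 (-3.26) and Smpx (-3.20). For Myh7 the deficit at E10.5 exceeded that at E12.5 (-2.83). At E10.5 the heart genes Myl2 (-7.19), Myl7 (-5.07) and Myh6 (-3.95) were lower distally too. Myl2 gave the highest value of the test, 3.61, with -5.57 at E14.5, -0.07 at E12.5 itself and 7 of the 10 mandible groups under the floor.

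Zic1 ran -0.27, -1.05, -6.49, -5.08 and -3.09 and C1qtnf3 0.21, -0.26, -6.12, -5.78 and -3.21, so that both were near 0 at E10.5 and far below it from E12.5 on. Hoxa2 ran 0.82, -0.99, -5.78, -5.10 and -4.03 and Oc90 -0.13, -0.52, -5.31, -4.52 and -5.17, with deficits of more than 4 from E12.5 on. Alx1 was higher distally at each age, with 2.43, 3.74, 5.74, 5.35 and 4.86, as was Hand2, with 0.92, 1.36, 2.73, 3.28 and 3.49. Pax3 had -0.05, 0.86, 3.38, 3.63 and 3.41, and the distal excess that it held at E12.5 was also found at both later ages. Afp had 0.22, 0.24, 2.47, -0.09 and 0.33, called at E12.5 and at none of the other 4 ages (2.298, SE 0.34, adjusted p 9.48e-07).

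Among the other genes named for a distal excess, Dkk4 had -1.89, -0.24, 2.64, 1.84 and 0.49, below 0 at the first 2 ages. Against the other ages it gave 2.59 (SE 0.21, limma adjusted p 3.99e-13). Ambn had -0.11, -0.15, 2.54, 1.75 and 0.76, Hey2 0.05, 0.67, 2.87, 2.44 and 1.44 and Ptger2 0.29, 0.82, 2.87, 2.11 and 1.003, with their highest values at E12.5. Alpl, of the bone list, had -0.15, 0.23, 2.01, 1.37 and 0.38. Whether Ambn goes with bone or with epithelium genes was not tested. Of 9 Wnt targets 7 were called upward and 1 downward, of 15 surface epithelium genes 10 upward and none downward, and of 9 dental mesenchyme genes 6 upward and 1 downward. Of 10 dental epithelium genes 3 were called upward, 1 downward and 6 not, and their median difference at E12.5 was 0.29, below the 0.66 of E13.5. The Wnt target median at E12.5 was 0.64, beside 0.68 a day later. For surface epithelium the medians from E10.5 to E14.5 were 0.38, 0.19, 1.16, 1.11 and 0.67. For dental mesenchyme they were -0.06, -0.21, 0.96, 0.83 and 0.685, so that both lists were lowest at the first 2 ages. Cartilage genes were called upward in 11 of 20 cases and downward in 1, and their median differences from E10.5 to E14.5 were -0.08, -0.30, -0.30, -1.61 and -1.57. The cartilage median was thus lower at both later ages. Of 13 macrophage genes 11 were called downward and none upward.

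**Figure D5:**
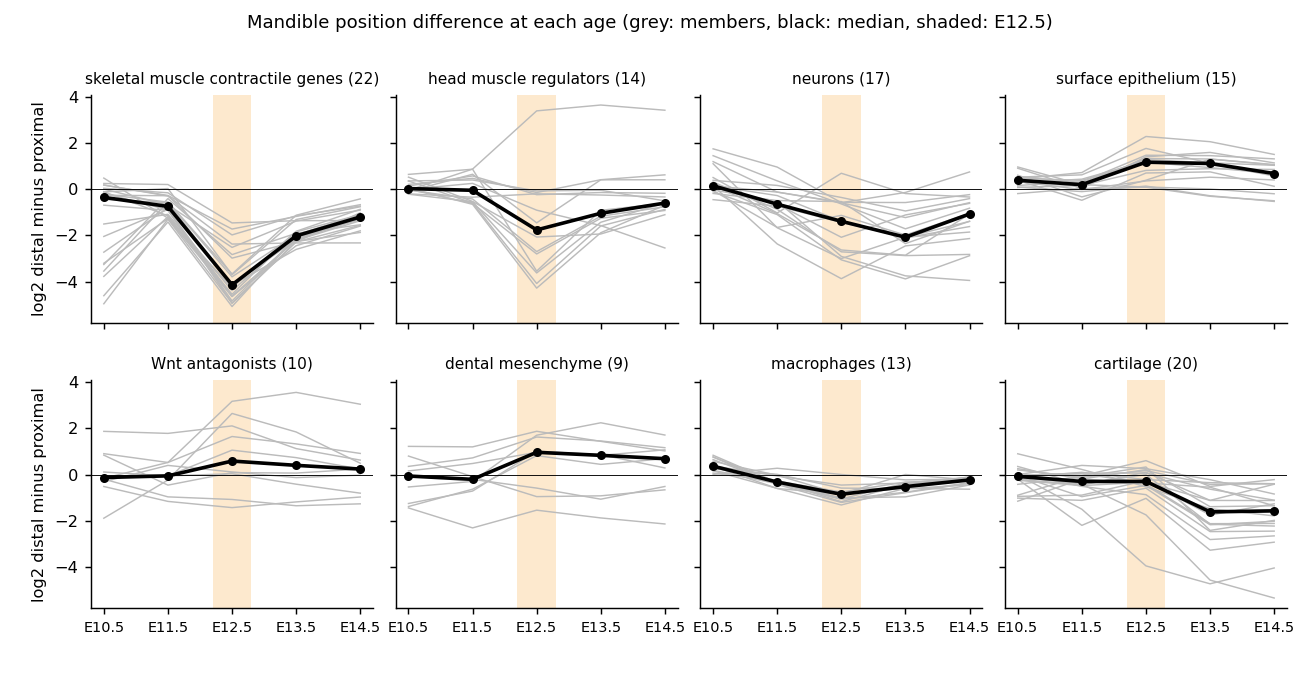
The log2 difference, distal minus proximal, in the mandible is shown at each age from E10.5 to E14.5 for 8 gene lists, with a grey line for each member, a black line for the median and E12.5 shaded. The muscle contractile median is lowest at E12.5 (-4.14), and the cartilage median is lowest at E13.5 (-1.61) and E14.5 (-1.57).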

How the data were processed

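RNA of 60 jaw pieces was measured on Affymetrix mouse arrays of 45101 probe sets. The deposited values are log2 signals made with RMA, per the submitters' processing notes, which give no version. RMA corrects background, normalizes between arrays and summarises probes. They run from 2.54 to 14.81. The notes do not say if all arrays were normalized together. The precision is limited by the 3 arrays per group.

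Of the probe sets, 34945 had 1 gene symbol in the platform annotation, 932 had several and 9160 had none, beside 64 control probe sets. A gene was represented by its single-symbol probe set with the highest mean over the 60 arrays, which gave 18193 genes. With limma 3.58.1 in R 4.3.3, a mean was fitted for each of 20 groups (40 residual degrees of freedom), and eBayes with trend and Benjamini-Hochberg adjustment over all genes gave the calls at an adjusted p under 0.05. The contrasts were distal minus proximal mandible at E12.5, the same difference less that of the maxilla, and the same difference less its mean at the other 4 ages. The fitting script was tested on simulated data.

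Named genes are the 15 with the largest called difference in each direction, and the 6 in each direction for the other contrasts, with a level of at least 6 in a group. Predicted and sex-linked genes were left out, and for the first contrast the groups had to be separate. Members of 38 gene lists may also be named. The arrays compared and the lists were chosen with earlier results of these data known, so that counts over a list describe it and test nothing. Same-numbered distal and proximal arrays of E12.5 mandible did not deviate together (r = -0.087, -0.059 and 0.005 across genes), and the replicate number was not used as a block. In E12.5 maxilla the values were 0.119, 0.002 and 0.144. With 3 arrays per group such values cannot exclude a pairing. Alternatives were another normalization, centring, a filter on dim genes, other probe set summaries, other arrays and variance models, array weights, the replicate block and leaving out arrays.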

Additional observations from a re-analysis of the deposited data

Results flagged for a closer look

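Tests of a difference between differences picked out 12 genes between the jaws and 12 between the ages, 6 in each direction. Between the jaws, the distal minus proximal difference of the mandible exceeded that of the maxilla most for these 6 genes. Prrxl1, a homeobox gene of sensory neurons, gave 5.81, Isl1 5.46, Ppp1r17 5.40, the ganglion factor Pou4f1 5.19, Ppp1r1c 5.12 and Neurod4, a neurogenic helix-loop-helix factor, 4.90. For each of the 6 the proximal maxilla held the highest mean of the 4 groups, and Ppp1r17 had 2 and Neurod4 3 groups under the floor. In the other direction the muscle genes Myl4, Tnnt2 and Tnnc2 gave -5.41, -5.30 and -5.29, the ear gene Oc90 -5.18, C1qtnf3 -5.01 (3 groups under the floor) and Hoxa2 -5.005 (2 groups under the floor). For each of the muscle genes the distal mandible held the lowest mean, and for Oc90, C1qtnf3 and Hoxa2 the proximal mandible held the highest.

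Between E12.5 and the mean of the other ages, the mandible's difference was most above it for Myl2 (3.61), Dkk4 (2.59), Afp (2.298), Ambn (1.97), Ptger2 (1.82) and Hey2 (1.72). Myl2, a ventricular myosin light chain, had 7 of the 10 mandible groups under the floor, and its value rests on E10.5, E13.5 and E14.5, where its differences were -7.19, -1.88 and -5.57. Ptger2 had 4 and Ambn 2 groups under the floor. The difference was most below the other ages for Zic1 (-4.12), C1qtnf3 (-3.86), Tnnc2 (-3.70), Myl1 (-3.59), Myf5 (-3.54) and Mylpf (-3.49), of which Zic1 had 4 and C1qtnf3 5 groups under the floor. E12.5 mandible is alone in its batch among the mandible ages, so that age and batch cannot be told apart.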

How the results depend on the processing

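All 54 named results, each a gene within a contrast, kept their direction and their call in each of the 930 alternative values computed for them. Some genes count under more than 1 contrast, and all were chosen for their large called differences. Among 361 genes of the lists, 103 of 6088 alternative values lost the call (29 genes), 168 gained one (65 genes) and 1 reversed, Bmpr1a at -0.014 (adjusted p 0.869) when its probe sets were averaged. Leaving out each of the 6 E12.5 mandible arrays gave 5121 to 5608 genes for distal against proximal (2390 to 2542 higher, 2684 to 3077 lower). It gave 5621 to 6048 for mandible against maxilla (2399 to 2478 upward, 3174 to 3570 downward) and 3655 to 4317 for E12.5 against the other ages (1693 to 1877 upward, 1879 to 2440 downward).

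Counts moved by over 1.5 times under 3 settings. A limit of 2-fold left 682 genes (203 higher, 479 lower), 1207 for the jaws (706 upward, 501 downward) and 309 for the ages (67 upward, 242 downward). Testing every probe set gave 10217 (5294 higher, 4923 lower), 10159 (4688 upward, 5471 downward) and 7315 (3683 upward, 3632 downward) probe sets, since more units were tested. Array weights, whose iteration stopped before it converged, gave 6948 genes for the ages (3179 upward, 3769 downward), and the cause was not tested. With the replicate number as a block, although same-numbered arrays of E12.5 mandible did not deviate together, 5900, 6046 and 4411 genes were called. Added after seeing the data, leaving out 2 arrays gave 5451 genes for the jaws and 4978 for the ages. Signals near the floor of 4.78 limit the size of differences. Where both groups lie under the floor, as for Hmx3, the gene was not shown to be present and the direction is uncertain too.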
